A study of Sus scrofa with 36 samples.

Results

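Genes of mitochondrial oxidative phosphorylation were examined in the hippocampus of young pigs fed milk replacer with or without added lactoferrin, an iron-binding glycoprotein of milk. A gene was included when its probe set carried a single annotated symbol that starts with NDUF, SDH, UQCR or ATP5, or with COX and a digit from 4 to 8. This gave 64 genes of the 6765 that the array named by exactly 1 symbol. Together they had 82 probe sets, and each gene was read from its probe set with the highest mean over all arrays. All 64 lay above the level below which dim probe sets were left out.

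Oxidative phosphorylation makes most of the ATP of a neuron. Complexes I and II pass electrons from NADH and succinate to ubiquinone, complex III passes them to cytochrome c, and complex IV passes them to oxygen, while complex V (ATP synthase) uses the proton gradient that complexes I, III and IV build. A few core subunits are encoded in mitochondrial DNA and the rest in the nucleus. In brain, the ATP is spent largely on restoring ion gradients after synaptic activity.

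RNA was measured in 36 male Landrace by Large White piglets, 12 in each of 3 feeding groups, with 1 Affymetrix porcine array per animal and tissue taken at postnatal day 38. Piglets entered the study at 3 days of age and received milk replacer with its basal lactoferrin (control), with 0.6 g/L lactoferrin added (medium dose) or with 1.2 g/L added (high dose). How much basal lactoferrin the replacer held is not stated in the labels. The labels further sort samples into 5 sets, coded S1 to S5, without explaining the code. Set S1 had 2 control, 0 medium-dose and 2 high-dose arrays, S2 had 2, 4 and 4, S3 had 3, 3 and 2, S4 had 3 in each group, and S5 had 2, 2 and 1.

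Values are log2 levels as deposited, rounded to 1 decimal, so steps of 0.1 limit what a single array can show. Array medians lay between 6.6 and 6.7, and no pair of arrays held identical values. On average an array correlated with the rest at 0.983. High-dose replicate 2 had the lowest such value, 0.961, and stood apart with the lowest mean of the neuron markers (10.68) and the highest mean of the oligodendrocyte markers (10.46). Neuron markers were high in every group, among them SNAP25 and SYT1 of the synaptic release machinery, with means of 12.92 and 12.35 over the 36 arrays. The number of arrays limits the precision, and levels of different genes are not compared, because probe sets differ in brightness.

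The 64 genes were made up of 35 of complex I, 5 of complex II, 2 of complex III, 8 of complex IV and 14 of complex V. By role, 16 encode core or catalytic subunits, 43 encode accessory subunits and 5 encode factors that assemble or couple a complex (NDUFAF1, NDUFAF2, NDUFAF3, SDHAF2 and ATP5S). NDUFA4, long counted as a complex I subunit, was placed with complex IV. None of the mitochondrially encoded subunits was named on the array, so every value concerns a nuclear gene. COX4I1, COX5A, UQCRC1, UQCRC2, UQCRFS1 and ATP5C1 were not analysed here.

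Over all members, the means of the feeding groups differed by less than the spread between piglets. The mean over the 64 genes lay between 10.04 and 10.30 in control piglets with a median of 10.18, between 10.02 and 10.29 at the medium dose with a median of 10.16, and between 10.03 and 10.32 at the high dose with a median of 10.16. Group means were 10.17 ± 0.09 in control piglets, 10.17 ± 0.06 at the medium dose and 10.17 ± 0.08 at the high dose (SD, n = 12 each). The lowest array was medium-dose replicate 1 and the highest was high-dose replicate 6, and the 3 groups overlapped over nearly their whole range. P-values here measure the spread between these piglets, which are separate samples in the labels. In bulk tissue, fewer cells of a type and less RNA per cell cannot be told apart.

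**Figure D1:**
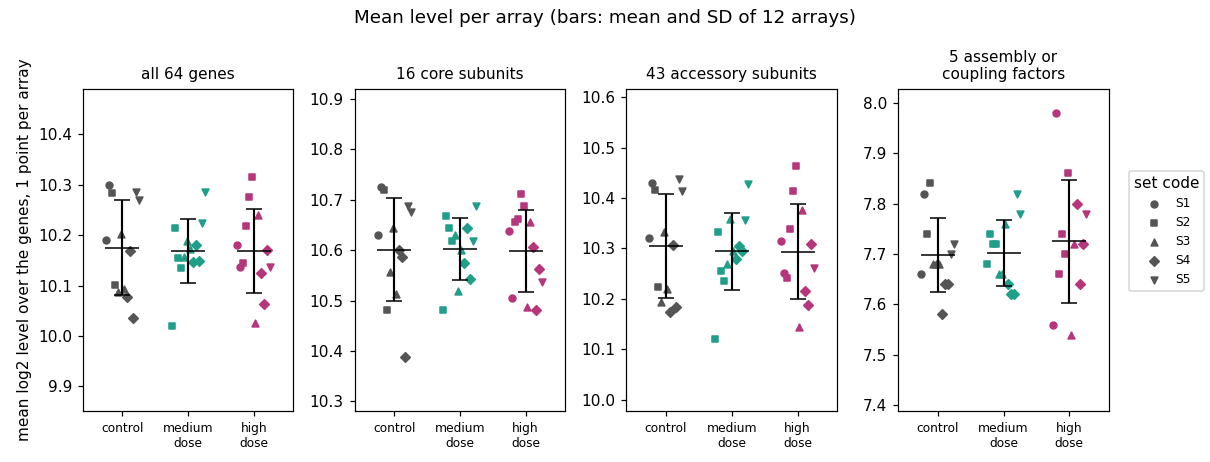
Mean log2 level over all 64 genes, the 16 core subunits, the 43 accessory subunits and the 5 assembly or coupling factors (vertical axes, log2), 1 point per array, by feeding group from control to high dose (horizontal axis), with the marker shape giving the set code and bars giving the mean and SD of 12 arrays. The groups overlap in every panel, and the array at 7.98 in the panel of assembly or coupling factors is high-dose replicate 2.

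Medium-dose piglets were compared with control piglets to ask whether added lactoferrin moved these genes. None of the 64 passed limma's test at an adjusted p under 0.05, where the share of all 18006 probe sets that passed was 0%. At an unadjusted p under 0.05 there was 1 member (1.56%), against 6.93% of all probe sets. Of the 64 differences, 28 were positive and 36 negative, with a median of -0.0045 on the log2 scale, against 0.00062 over all probe sets. They ran from -0.09 for SDHC to 0.10 for NDUFS3.

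The gene past the unadjusted threshold was SDHC, which anchors complex II (succinate dehydrogenase) in the inner membrane. Its lowest, median and highest levels were 8.9, 9.05 and 9.2 in control piglets, 8.8, 8.9 and 9.1 at the medium dose, and 8.8, 9.0 and 9.2 at the high dose. At the medium dose 11 of 12 piglets lay below the control median, though the ranges overlapped. The medium-dose difference from control was -0.09 on the log2 scale (SE 0.04, 95% interval -0.18 to -0.0031, unadjusted p = 0.0431, limma adjusted p = 0.708). It was -0.23 within S2, -0.07 within S3 and within S4, and 0 within S5, and with S2 left out it was -0.05 (unadjusted p = 0.376). At the high dose it was -0.08 (SE 0.04, unadjusted p = 0.0912, limma adjusted p = 0.976), with 10 of 12 piglets below the control median. Both comparisons use the same control arrays.

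The other complex II subunits did not follow SDHC at the medium dose. SDHA, the flavoprotein that oxidises succinate, differed from control by 0.0038, SDHB, its iron-sulphur partner, by 0.03, and SDHD, the other membrane anchor, by -0.02 on the log2 scale, none past an unadjusted p of 0.05. SDHA levels ran from 10.1 through a median of 10.3 to 10.5 in control piglets, from 10.1 through 10.3 to 10.5 at the medium dose, and from 10 through 10.3 to 10.4 at the high dose. For all 4 subunits the groups overlapped.

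The largest positive medium-dose difference belonged to complex I and the next to ATP5D of complex V. Of the 35 complex I differences 19 were positive and 16 negative, with a median of 0.0025. NDUFS3, a core subunit of the peripheral arm, averaged 9.96 ± 0.10 at the medium dose and 9.86 ± 0.16 in control piglets (SD, n = 12 each), a difference of 0.10 with an SE of 0.05 (unadjusted p = 0.0627, limma adjusted p = 0.744). Another NDUFS3 probe set gave 0.12 with an unadjusted p of 0.0401, and the remaining one gave -0.19 with an unadjusted p of 0.0962. The probe sets of this gene therefore pointed in different directions. NDUFA8, NDUFA11 and NDUFA3, accessory subunits, had 0.07, 0.07 and 0.06 at unadjusted p above 0.05, and NDUFB7 had 0.06. NDUFA13, also an accessory subunit, had -0.07. NDUFS1, NDUFV1 and NDUFV2, core subunits that hold the first electron carriers of complex I, differed from control by 0.0025, -0.0028 and -0.0048 at the medium dose.

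In complex IV, 7 of 8 members had a negative and 1 a positive difference at the medium dose, with a median of -0.02 on the log2 scale and none past an unadjusted p of 0.05. These genes had a median pairwise correlation of 0.382 over the arrays, so their signs are not separate observations. COX6A1, the non-muscle isoform of its subunit, differed by -0.07 (SE 0.04, unadjusted p = 0.144). COX7A1, the heart and muscle isoform, differed by -0.07 (SE 0.07, unadjusted p = 0.276), and COX7A2, the widely expressed isoform, by -0.04. In complex V, ATP5D, the delta subunit of the rotor stalk, averaged 10.12 ± 0.10 at the medium dose and 10.01 ± 0.12 in control piglets (SD, n = 12 each), a difference of 0.09 with an SE of 0.05 (unadjusted p = 0.0942). ATP5A1 and ATP5B, the alpha and beta subunits of the catalytic head, differed by -0.05 and 0.02, and the median over the 14 members of complex V was -0.0092.

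High-dose piglets gave a similar count with other genes at the extremes. None of the 64 passed limma's test at an adjusted p under 0.05 (0% of all probe sets passed), and 2 members (3.12%) had an unadjusted p under 0.05, against 4.94% of all probe sets. Again 28 differences were positive and 36 negative, with a median of -0.0056 and a range from -0.10 for NDUFA5 to 0.14 for COX8H. Over all probe sets the median was -0.00049.

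COX8H, named as the heart isoform of a small complex IV subunit, had the largest high-dose difference. Its lowest, median and highest levels were 6.5, 6.75 and 6.9 in control piglets, 6.5, 6.7 and 7.0 at the medium dose, and 6.6, 6.8 and 7.2 at the high dose. At the high dose 9 of 12 piglets lay above the control median, within overlapping ranges. The high-dose difference from control was 0.14 (SE 0.06, 95% interval 0.01 to 0.26, unadjusted p = 0.0305, limma adjusted p = 0.976). The highest value, 7.2, came from high-dose replicate 2, and without that array the difference was 0.10 with an unadjusted p of 0.0885. The difference was 0.03 within S2, 0.20 within S3, 0.17 within S4 and 0 within S5. In S1, which holds high-dose replicate 2, the control arrays had 6.7 and 6.6 and the high-dose arrays 6.8 and 7.2.

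SDHAF2 encodes the assembly factor that attaches flavin to SDHA. It ran from 8.3 through a median of 8.6 to 8.7 in control piglets, from 8.5 through 8.6 to 8.7 at the medium dose, and from 8.5 through 8.65 to 8.8 at the high dose. The high-dose difference was 0.09 (SE 0.04, 95% interval 0.0070 to 0.17, unadjusted p = 0.0342, limma adjusted p = 0.976), with 6 of 12 piglets above the control median. Without high-dose replicate 2 it was 0.07 and had an unadjusted p above 0.05. The gene's other probe set gave 0.10 with an unadjusted p of 0.139.

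Among the remaining members nearest the unadjusted threshold at the high dose were NDUFV3, an accessory subunit of complex I, with a difference of 0.09 (SE 0.06), and COX6C, a nuclear subunit of complex IV, with -0.06 (SE 0.05). NDUFAF2, an assembly factor of complex I, had 0.07, and NDUFA5, an accessory subunit of its peripheral arm, had -0.10 with an SE of 0.10. NDUFA2, another accessory subunit, had -0.06 (SE 0.07). ATP5S, called factor B and placed with the coupling factors of ATP synthase, depended on the probe set. The one used here gave -0.07 (unadjusted p = 0.242), and the other gave -0.22 with an unadjusted p of 0.0130 at the high dose and -0.20 with an unadjusted p of 0.0309 at the medium dose. Levels from both ATP5S probe sets had a correlation of 0.619 over the 36 arrays.

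**Figure D2:**
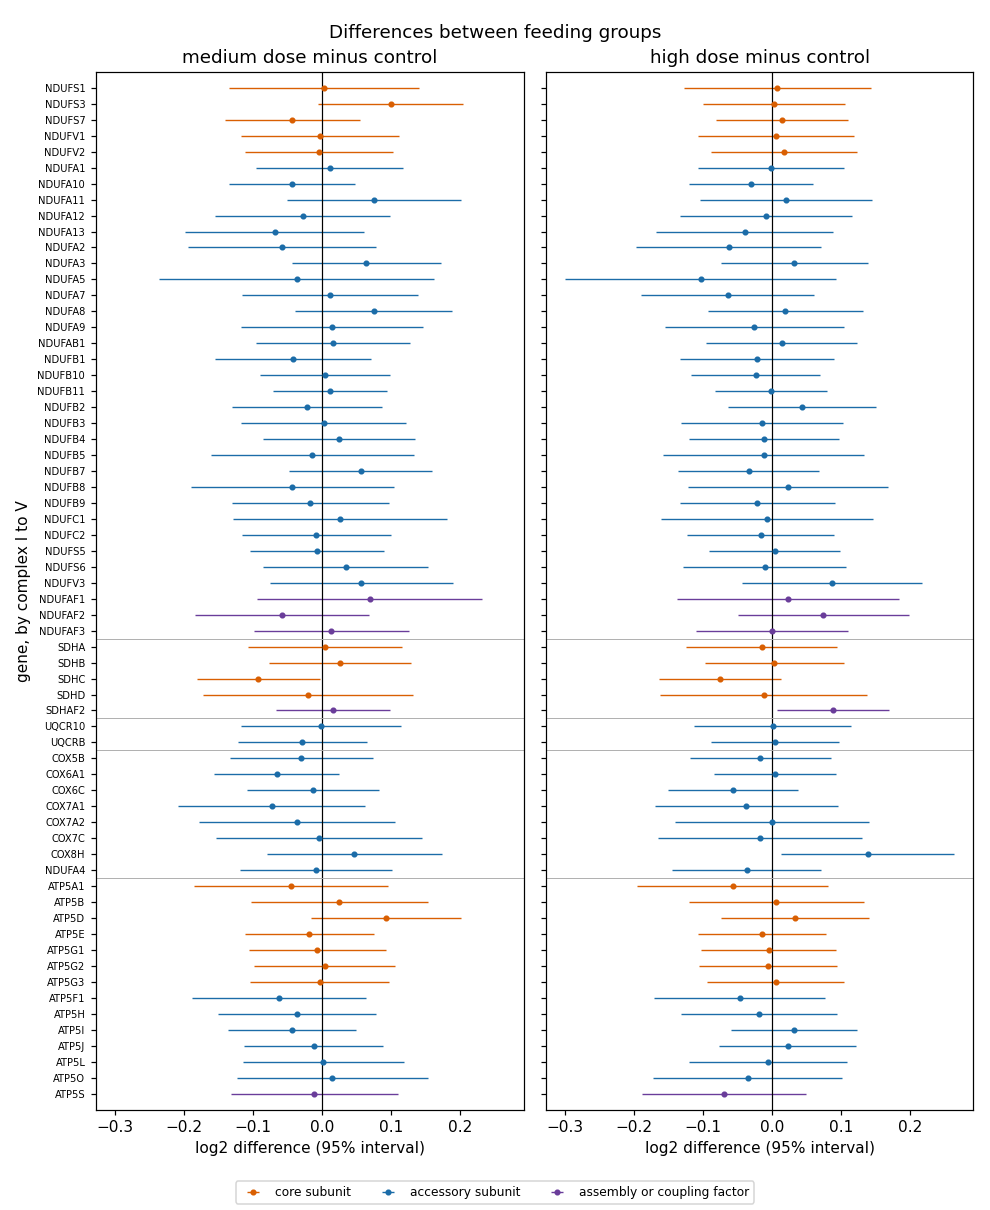
Log2 differences of medium dose minus control (left) and high dose minus control (right) for each of the 64 genes (vertical axis, in order of complexes I to V), with points for the estimate and bars for the 95% interval from limma, coloured by role. Most intervals cover 0; the exceptions are SDHC on the left, and COX8H and SDHAF2 on the right, and none of these passed after adjustment.

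High-dose piglets were also set against medium-dose piglets. None of the members passed limma's test at an adjusted p under 0.05 (0% of all probe sets passed), and 1 (1.56%) had an unadjusted p under 0.05, against 5.98% of all probe sets. This was NDUFAF2, which ran from 7.1 through a median of 7.45 to 7.8 at the high dose and from 7.1 through 7.4 to 7.5 at the medium dose. Its difference was 0.13 (SE 0.06, 95% interval 0.0071 to 0.26, unadjusted p = 0.0390, limma adjusted p = 0.811), the highest level being that of high-dose replicate 2. With the neuron and oligodendrocyte marker means as covariates it was 0.08 (unadjusted p = 0.163). NDUFS3 had -0.10 (unadjusted p = 0.0696), NDUFB7 -0.09 and COX8H 0.09. ATP5I, the e subunit of ATP synthase, had 0.08 (SE 0.05), and NDUFB2, an accessory subunit of complex I, had 0.07 (SE 0.05). Of the 64 differences 31 were positive and 33 negative.

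The core subunits NDUFS1, ATP5A1 and ATP5B lay in nearly the same range in all 3 groups. Other core subunits had the differences farthest from 0 at the medium dose, SDHC with -0.09, NDUFS3 with 0.10 and ATP5D with 0.09. NDUFS1 ran from 8.7 through a median of 9.2 to 9.4 in control piglets, from 8.9 through 9.2 to 9.4 at the medium dose and from 8.8 through 9.2 to 9.4 at the high dose, where its difference from control was 0.0082 (SE 0.07). ATP5A1 ran from 12.4 through a median of 12.7 to 12.9 in control piglets, from 12.4 through 12.65 to 12.8 at the medium dose and from 12.3 through 12.65 to 12.9 at the high dose, where it differed by -0.06 (SE 0.07). ATP5B ran from 11.8 through a median of 12.1 to 12.2 in control piglets, from 11.7 through 12.1 to 12.2 at the medium dose and from 11.8 through 12.05 to 12.2 at the high dose, where it differed by 0.0065 (SE 0.06). In each of these catalytic or electron-carrying subunits the groups overlapped almost completely.

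Complex III was represented by UQCRB and UQCR10, small subunits that bind beside the catalytic core. UQCRB ran from 10.6 through a median of 10.7 to 10.8 in control piglets, from 10.5 through 10.7 to 10.9 at the medium dose and from 10.5 through 10.7 to 10.9 at the high dose. Its differences from control were -0.03 (SE 0.05) at the medium dose and 0.0049 (SE 0.05) at the high dose. UQCR10 differed by -0.0018 and 0.0011, each with an SE of 0.06. Of the muscle-type isoforms, COX7A1 ran from 8.3 through a median of 8.65 to 8.8 in control piglets, from 8.3 through 8.5 to 8.8 at the medium dose and from 8.2 through 8.6 to 8.9 at the high dose, where it differed by -0.04 (SE 0.07), while COX8H had 0.14.

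The intervals of the differences were narrow. For medium dose against control, the 95% intervals of all 64 genes lay within a 1.2-fold difference in either direction, and 30 lay within 1.1-fold, compared with 73.7% and 14% of all probe sets. For high dose against control these numbers were 62 and 35 of 64, and for high against medium dose 63 and 27. For medium dose against control the median SE of the members was 0.056 on the log2 scale, against 0.071 over all probe sets. The median size of that difference, with its sign dropped, was 0.025 among the members and 0.053 over all probe sets. RMA values compress fold differences, so these limits apply to the deposited scale.

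Cell type markers were read beside these comparisons. The neuron marker mean (13 genes) averaged 11.53 in control piglets, 11.58 at the medium dose and 11.51 at the high dose, and the oligodendrocyte marker mean (16 genes) averaged 9.66, 9.46 and 9.66. None of the markers passed an adjusted p of 0.05 in limma for either dose. Microglia markers had median differences over 9 tested genes of -0.19 at the medium dose and -0.20 at the high dose, with 4 and 3 of them at an unadjusted p under 0.05 (limma), against 6.93% and 4.94% of all probe sets. Oligodendrocyte markers had medians over 15 tested genes of -0.16 at the medium dose, with 2 negative at an unadjusted p under 0.05, and 0.02 at the high dose, with 0. Among them was CNP, a myelin enzyme, with -0.58 (SE 0.21, unadjusted p = 0.00784) at the medium dose. The part of microglia in the results was not tested. With the neuron and oligodendrocyte means as covariates the count of members that passed was still 0 for each comparison.

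Set codes were compared because they cut across the feeding groups. An F test of any difference between the 5 codes called none of the 64 genes at an adjusted p under 0.05, where 2.62% of all probe sets passed, and 8 members (12.5%) had an unadjusted p under 0.05, against 17.4% of all. The smallest was that of ATP5S (p = 0.00568, limma adjusted p = 0.106), which averaged 7.85 (S1), 7.67 (S2), 7.55 (S3), 7.54 (S4) and 7.68 (S5) over the arrays of each code. NDUFB10, an accessory subunit of the complex I membrane arm, averaged 10.15, 10.03, 9.99, 9.93 and 10.10 in the same order (unadjusted p = 0.0146), and NDUFV2 averaged 10.23, 10.10, 10.05, 9.98 and 10.16 (unadjusted p = 0.0193). NDUFA7, NDUFA12, NDUFB7, COX5B and ATP5E made up the rest. Without high-dose replicate 1, ATP5S passed at an adjusted p of 0.0459, and without high-dose replicate 12, NDUFA7 passed at an adjusted p of 0.0263. The share of all probe sets that passed in those fits is not given.

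The mean over all 64 genes averaged 10.20 for S1, 10.19 for S2, 10.15 for S3, 10.12 for S4 and 10.24 for S5. Sets S4 and S5 together were also set against S1 to S3, a split made with earlier results of these data known. It averages S4 with S5, the lowest and the highest of these means, so opposite shifts in them can cancel. No member passed limma's test at an adjusted p under 0.05 (0.566% of all probe sets passed) or at an unadjusted p under 0.05 (6.7% of all), and all 64 intervals lay within 1.2-fold. NDUFA12, an accessory subunit of complex I, had the smallest unadjusted p (0.0742), with a difference of 0.10, and UQCR10 had 0.09 (SE 0.05). From S1 to S5, NDUFA12 averaged 11.25, 11.31, 11.38, 11.28 and 11.54. When the dose differences were allowed to vary among S2, S3, S4 and S5 (32 arrays), no member passed after adjustment (0.0167% of all probe sets passed), and NDUFA7 and NDUFAF1 had unadjusted p-values of 0.0319 and 0.0414 (3.12% of members, against 6.49% of all).

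Levels of the members moved together from piglet to piglet. Over the 36 arrays the median correlation between a pair of members was 0.372 across 2016 pairs, and 84.2% of pairs were above 0. For all tested probe sets the median was -0.0029. With feeding group and set code removed the members' median was 0.357. The first principal component of the 64 genes held 41.1% of their variance, against 19.4% for the first component of all probe sets. These are descriptions of arrays that share a scale set by RMA. The values for all probe sets were not restricted to the members' range of levels.

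**Figure D3:**
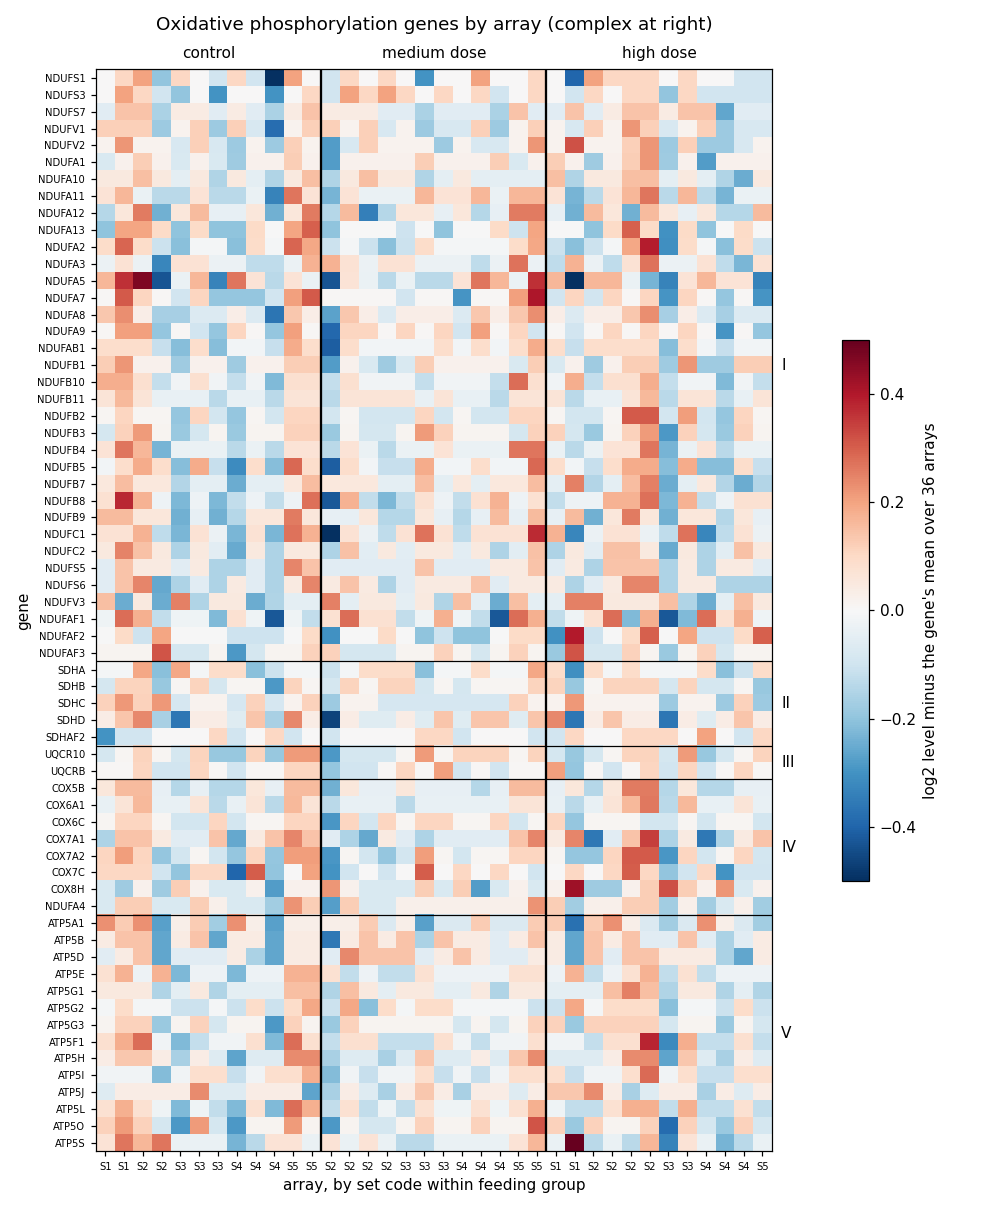
Log2 level of each of the 64 genes (rows, grouped by complex I to V) on each of the 36 arrays (columns, by feeding group and set code), as the difference from the gene's own mean, with colours capped at 0.5 in either direction. Whole columns tend to one colour, and such columns occur in all 3 feeding groups.

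Median correlations were also read by complex and role, and differences between them were not tested. With assembly and coupling factors left out, median correlations within a complex were 0.451 for complex I, 0.258 for the 4 subunits of complex II, 0.491 for the pair of complex III, 0.382 for complex IV and 0.383 for complex V. Single pairs ran from -0.380 to 0.835 in complex I (496 pairs) and from -0.203 to 0.558 in complex II (6 pairs). In complex II, SDHB correlated at 0.558 with SDHD and at 0.486 with SDHA, and SDHC at -0.203 with SDHA. Accessory subunits had a median of 0.481, core subunits 0.398 and assembly or coupling factors 0.213. Against the mean of the other 63 members, 43 genes had a correlation above 0.5 and 12 above 0.8. The highest were ATP5L and ATP5H, the g and d subunits of ATP synthase (0.872 and 0.869), COX5B (0.859) and COX7A2 (0.856), both subunits of complex IV. ATP5J, COX8H, SDHAF2 and NDUFV3 were the 4 genes below 0, with -0.0281, -0.177, -0.217 and -0.232.

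The amplitude of this movement was small. The median SD of a member over the 36 arrays was 0.130 on the log2 scale, against 0.171 for the probe sets whose means lay in the same range of levels. NDUFB11, an accessory subunit of complex I, varied least, with an SD of 0.0867, and lay between 9.3 and 9.6. SDs were 0.171 for SDHD in complex II, 0.170 for COX7A1 and 0.165 for COX7C in complex IV, 0.135 for UQCR10 in complex III, and 0.162 for ATP5S in complex V, each among the largest of its complex. NDUFA5 varied most, with an SD of 0.238. It ran from 8.3 through a median of 8.8 to 9.2 in control piglets, from 8.3 through 8.7 to 9.1 at the medium dose and from 8.2 through 8.8 to 8.9 at the high dose.

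Levels were then related to the neuron marker mean of the same tissue sample, a comparison chosen after the data were seen. A slope on this mean was fitted with limma for every probe set, with feeding group and set code as further terms. Of the 64 genes, 22 (34.4%) passed at an adjusted p under 0.05, close to the 31.7% of all probe sets that passed. By direction, 20 (31.2%) rose with the neuron mean and 2 (3.12%) fell, where 16.2% of all probe sets rose and 15.4% fell. The difference between members and other genes was not tested. Core subunits rose in 9 of 16 cases, accessory subunits in 11 of 43, and assembly or coupling factors in 0 of 5. Both genes that fell were among these 5. Without high-dose replicate 2, 15 members rose (8 core and 7 accessory) and 1 fell, where 9.93% of all probe sets rose and 7.49% fell.

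NDUFA5 had the steepest slope, 0.79 log2 units per unit of the neuron mean (SE 0.13, limma adjusted p = 1.94e-05). Its level was 8.2 in high-dose replicate 2, where the neuron mean was 10.68, and 8.3 in medium-dose replicate 1 and control replicate 4, where the neuron mean was 11.12. It was 9.2 in control replicate 3, where the neuron mean was 11.81. Other arrays followed the slope less closely. NDUFA5 was at 8.9 in high-dose replicate 1, where the neuron mean was highest at 11.92. In control replicate 2 it was at 9.1, where the neuron mean was 11.38. Without high-dose replicate 2 the slope was 0.81 (adjusted p = 0.00148).

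In complex II, 3 of the 4 structural subunits rose with the neuron mean. Slopes were 0.52 for SDHD (SE 0.11), 0.36 for SDHA (SE 0.08) and 0.33 for SDHB (SE 0.08). SDHC had -0.10 (SE 0.08, limma adjusted p = 0.366). It was at 9.2, its highest level, in high-dose replicate 2 and in control replicates 2 and 4, where the neuron mean was 11.38 and 11.12. SDHA was at 10, its lowest, in high-dose replicate 2. No test of the difference between these slopes was made.

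In complex I the large core subunit NDUFS1, which carries electrons through the input arm, had a slope of 0.48 (SE 0.10), and the accessory subunit NDUFC1 had 0.49 (SE 0.12). NDUFS3 passed with 0.24 (SE 0.09). The core subunits NDUFV2 and NDUFS7 had slopes of 0.0018 and -0.0035 with SEs of 0.10 and 0.09, and NDUFV1, which binds NADH, had 0.21 (SE 0.10, limma adjusted p = 0.111). In complex V the catalytic subunits ATP5A1 and ATP5B had 0.46 (SE 0.11) and 0.44 (SE 0.09), and ATP5D had 0.36 (SE 0.08). Of the 3 genes for the c subunit of the rotor ring, ATP5G3 passed with 0.33 (SE 0.07), and ATP5G1 (0.19, SE 0.09) and ATP5G2 (-0.08, SE 0.09) did not. NDUFA4 had 0.34 (SE 0.09) and COX6C 0.24 (SE 0.08) in complex IV, and UQCRB 0.24 (SE 0.08) in complex III.

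The genes with the highest correlation with the other members were not those with the steepest slopes. ATP5L had 0.16 (SE 0.11, limma adjusted p = 0.270), ATP5H 0.10 (SE 0.11) and COX5B 0.11 (SE 0.10). Over the 36 arrays the mean of all 64 genes and the neuron mean had a correlation of 0.381 (Spearman 0.462), which was 0.785 within S2, 0.370 within S3 and 0.0545 within S4. The mean of the members also correlated at -0.451 with the 3′ minus 5′ signal of GAPDH, a measure of RNA integrity and labelling, and at 0.0167 with that of actin. The GAPDH value was -0.448 within S2, 0.189 within S3 and -0.447 within S4. With the spike-in labelling control Dap, which was absent from 10 of the 36 arrays, the mean correlated at 0.433, and at 0.0822 within S2, 0.550 within S3 and 0.754 within S4. It was 0.112 over the 26 arrays that held Dap. The part of RNA quality and labelling in these relations was not tested.

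NDUFAF3, an assembly factor of complex I, fell with the neuron mean, with a slope of -0.39 (SE 0.08, limma adjusted p = 0.000338). Its highest level, 8.6, came from high-dose replicate 2 and control replicate 4, and it was 8.1 in high-dose replicate 1, where the neuron mean was highest at 11.92. The slope was -0.38 (adjusted p = 0.0128) without high-dose replicate 2. ATP5S fell with a slope of -0.34 (SE 0.10, limma adjusted p = 0.00784). Its level was 8.2 in high-dose replicate 2, and without that array the slope was -0.17 and did not pass (adjusted p = 0.351). NDUFAF2 had -0.27 (SE 0.11), SDHAF2 -0.13 (SE 0.07) and NDUFAF1 0.0027 (SE 0.15), none of which passed.

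**Figure D4:**
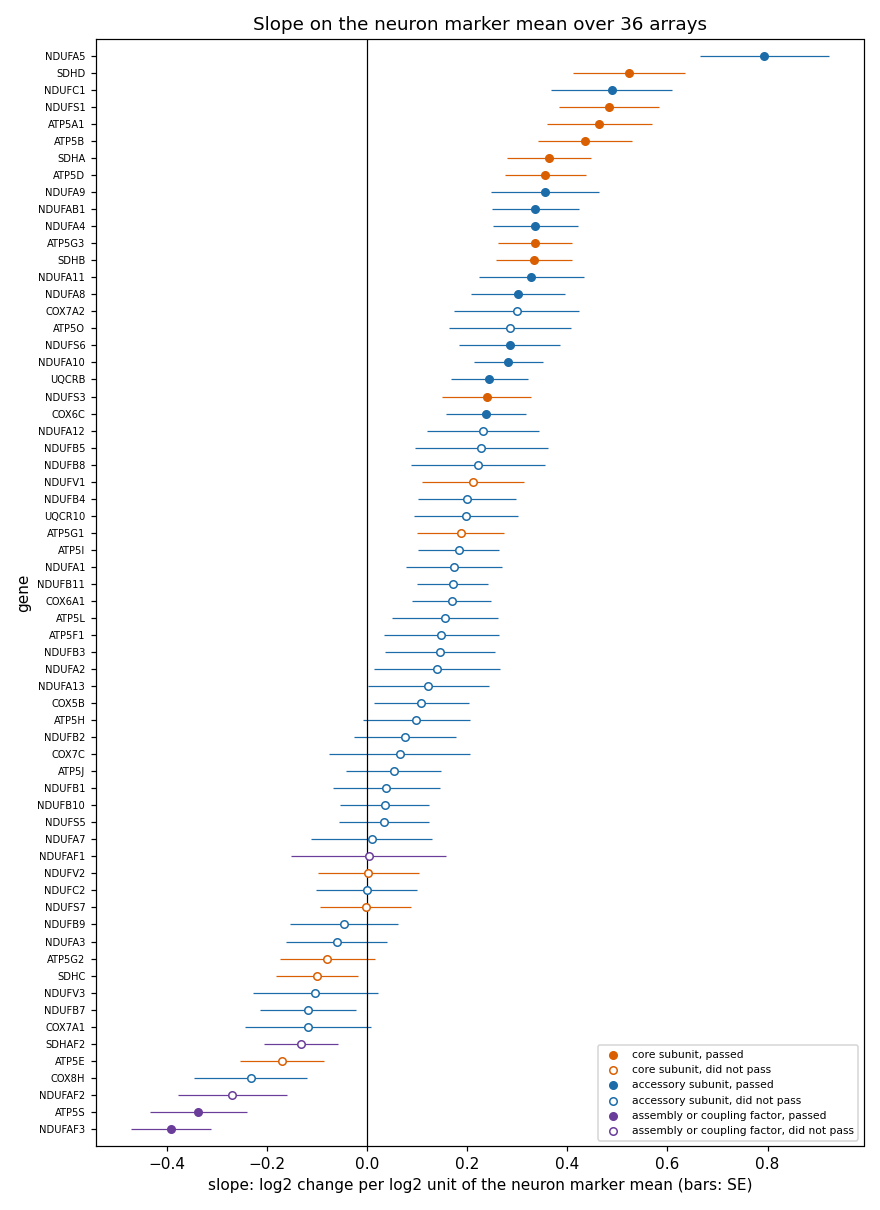
Slope of each of the 64 genes (vertical axis) on the neuron marker mean (horizontal axis, log2 units per log2 unit), with bars for the SE, coloured by role, and filled where the adjusted p was under 0.05. NDUFA5 stands at the top with 0.79, and NDUFAF3 at the bottom with -0.39.

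**Figure D5:**
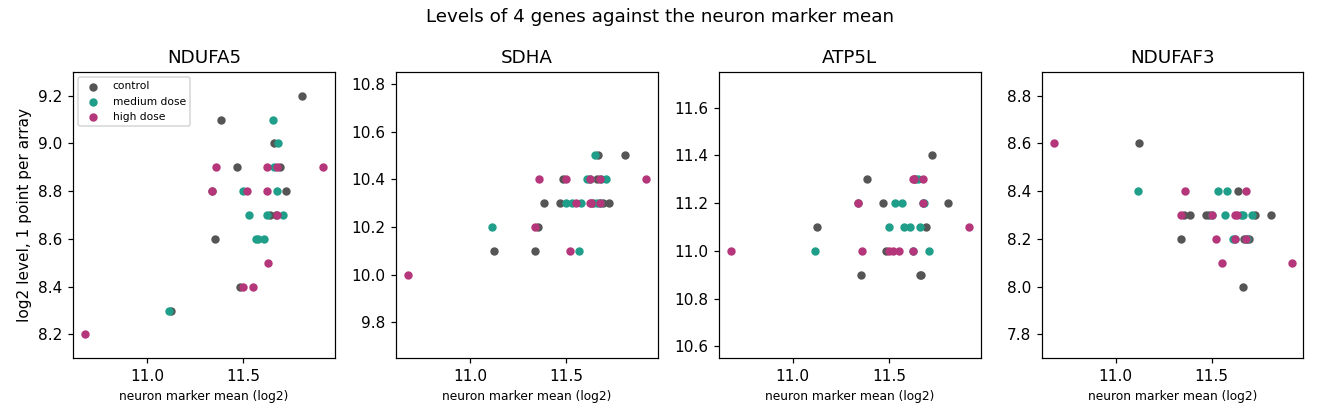
Log2 level of NDUFA5, SDHA, ATP5L and NDUFAF3 (vertical axes) against the neuron marker mean (horizontal axis, log2), 1 point per array, coloured by feeding group. The array at 10.68 is high-dose replicate 2, with NDUFA5 at 8.2, SDHA at 10, ATP5L at 11 and NDUFAF3 at 8.6.

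Of the 22 calls on the neuron mean, 14 passed in each of the 36 fits that left out 1 array. Without high-dose replicate 2 the count was 16, and ATP5S, COX6C, NDUFA11, NDUFS3, NDUFS6 and UQCRB no longer passed. The slope of ATP5S moved most, to -0.17, while NDUFS3 had 0.28, NDUFS6 0.34, NDUFA11 0.29, COX6C 0.23 and UQCRB 0.20 in that fit, against 0.24, 0.28, 0.33, 0.24 and 0.24 with all arrays. Medium-dose replicate 1 ended the calls of COX6C, NDUFA11, NDUFA8, NDUFA9 and NDUFS3 when it was left out. High-dose replicate 1 ended those of COX6C and UQCRB, control replicates 3 and 4 those of NDUFS3 and NDUFS6, and control replicates 8 and 10 and medium-dose replicate 9 that of NDUFS3.

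Slopes on the oligodendrocyte mean ran the other way. Here 19 members (29.7%) passed, against 27.6% of all probe sets. Of these, 16 members (25%) fell and 3 (4.69%) rose, where 14.4% of all probe sets fell and 13.1% rose. The 3 that rose were NDUFAF3 (0.29, SE 0.09), NDUFAF2 (0.34, SE 0.09) and ATP5S (0.26, SE 0.10). In all, 15 members rose with the neuron mean and fell with the oligodendrocyte mean, and 2 did the opposite. Both marker means had a correlation of -0.747 over the 36 arrays, so the slopes are not separate evidence. Without high-dose replicate 2 the count was 5 (14.1% of all probe sets passed), and without control replicate 4 it was 11 (21.1% of all). Of the 14 calls lost without high-dose replicate 2, 3 had slopes at least as large in that fit, NDUFA12 with -0.31, NDUFS6 with -0.30 and NDUFA4 with -0.28. With both means in 1 fit, 3 members (ATP5B, NDUFA10 and NDUFA5) passed on the neuron mean, where 6.3% of all probe sets passed. On the oligodendrocyte mean 0 members passed in limma, 5.65% of all probe sets did, and 2 members had an unadjusted p under 0.05.

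Other genes of mitochondrial energy metabolism were read from lists by function. For either dose, 0 genes of any list passed limma's test at an adjusted p under 0.05. At an unadjusted p under 0.05 at the medium dose, where 6.93% of all probe sets lay, there were 2 of 8 regulators of mitochondrial biogenesis, which were PPRC1, a coactivator of the PGC-1 family (0.15, SE 0.05, unadjusted p = 0.00250), and SIRT3, a mitochondrial deacetylase (0.13, SE 0.05). PRDX3, a mitochondrial peroxidase, had -0.17 (SE 0.05, unadjusted p = 0.00277) as 1 of 12 redox genes. LDHA, which reduces pyruvate to lactate, had 0.21 (SE 0.10, unadjusted p = 0.0478) as 1 of 14 glycolytic genes, and MRPL18 0.14 (SE 0.06) as 1 of 58 genes of the mitochondrial ribosome. No gene of the tricarboxylic acid cycle (19), protein import (23), the other chain and carrier genes (20) or the other assembly factors (11) had an unadjusted p under 0.05 there.

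At the high dose, SUCLG2 of the tricarboxylic acid cycle had -0.20 (SE 0.08, unadjusted p = 0.0196), and ETFDH, which feeds electrons from fatty acids to ubiquinone, had -0.14 (SE 0.06, unadjusted p = 0.0291). SCO2, which delivers copper to complex IV, had 0.10 (SE 0.04, unadjusted p = 0.0264). Each was the only gene of its list at an unadjusted p under 0.05. Of the 58 genes of the mitochondrial ribosome 1 was positive and 2 were negative at that threshold, where 4.94% of all probe sets lay. No gene of glycolysis, biogenesis, import or redox defence was.

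Across arrays the mean of the 64 genes followed some other mitochondrial lists closely and others less. Its correlation was 0.943 (Spearman 0.903) with protein import and 0.925 (Spearman 0.907) with the mitochondrial ribosome, and 0.940 and 0.909 once the 2 arrays farthest from the median were left out. Within S2, S3 and S4 the correlation with import was 0.952, 0.959 and 0.942. Other chain and carrier genes had 0.834 and the other assembly factors 0.771. The tricarboxylic acid cycle had 0.723 and glycolysis 0.436, and the biogenesis regulators had 0.113. Redox genes had 0.588, which was 0.765 within S2, -0.0051 within S3 and 0.887 within S4. All these means come from the same arrays and share their scaling, and no test was made.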

How the data were processed

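The deposited table holds log2 expression values for each probe set, rounded to 1 decimal. Per the submitters' processing notes, the authors used RMA in Expression Console 1.1 (Affymetrix). This method subtracts background, equalises the distributions of the arrays and summarises probes, which can compress fold differences. Symbols came from the array annotation of 2016, and all 64 members matched the RefSeq table by gene ID.

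Without the 124 array controls the table holds 23999 probe sets. Dim ones, with a mean over all arrays under the 25th percentile (log2 4.92), were dropped, which left 18006. A linear model with feeding group and set code over 36 arrays was fitted in R 4.3.3 with limma 3.58.1 (eBayes, two-sided, Benjamini-Hochberg adjustment over 18006 probe sets, threshold 0.05). The model was also run on simulated data with independent noise and planted differences larger than any dose difference of the members. The members moved together, so that run does not show how small shifts among them would be found. Slopes used the mean of the named markers of a list as a further term. Piglets are separate samples in the labels. Figures were drawn with matplotlib 3.10.9 under Python 3.11.15.

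The members, the lists and the settings were chosen with earlier results of these data known. Named members are those past adjustment (at most 8 in each direction), otherwise the 10 smallest p-values of a comparison, with a fixed list of subunits, the largest and smallest SDs of each complex and up to 2 genes of each other list. ATP5L, ATP5H, NDUFAF1, NDUFAF3 and genes named for their correlations, single arrays or loss of a call were named after their values were seen. Other settings were filters, normalisation, blocks, array weights, robust eBayes, covariates, other probe sets and leaving out arrays or sets.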

Additional observations from a re-analysis of the deposited data

Results flagged for a closer look

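Means of each complex and role, and the 8 genes with an unadjusted p under 0.05 between set codes, were examined for an array far from the others of its set, in 85 groups of arrays. Chance alone flags about 1 in 20 groups, and steps of 0.1 in the deposited values limit what a gap can show. In all, 7 groups held such an array. The mean of the 5 assembly or coupling factors was 7.54 in high-dose replicate 7 of S3, where the nearest array had 7.66. NDUFB10 was at 10 in high-dose replicate 1 of S1, with the others at 10.2. NDUFA7 was at 9.0 in high-dose replicate 12 of S5, against 9.5 in the nearest array, and at 9.2 in high-dose replicate 3 of S2, against 9.3. COX5B was at 11.9 in high-dose replicate 12 of S5, against 12.1 in the nearest, and at 12.0 in control replicate 9 of S4, against 11.9. ATP5E was at 12.0 in control replicate 8 of S4, where the nearest had 12.1. Causes were not tested.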

How the results depend on the processing

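For each dose comparison, 0 members passed in limma under each of 18 other settings and 36 fits that left out 1 array. Medians over the members stayed between -0.03 and 0.02 for medium dose against control, -0.04 and 0.01 for high dose against control, and -0.06 and 0.02 for high against medium dose in those 18 settings. Counts at an unadjusted p under 0.05 ran from 0 to 3, 0 to 3 and 0 to 5 over all fits. In the main fit 6.93%, 4.94% and 5.98% of all probe sets lay there, and shares in the other fits are not given. NDUFB2 turned to -0.0064 without S2 for high against medium dose, and the cause was not tested. Leaving out 1 array gave 0 to 1 calls between set codes, with 1 each without high-dose replicate 1 or 12. It gave 16 to 27 calls on the neuron mean and 5 to 21 on the oligodendrocyte mean. The shares of all probe sets in the fits with 27 and 21 calls are not given. These ranges are therefore not read as particular to the members. The lowest oligodendrocyte counts were 5 (high-dose replicate 2 left out) and 11 (control replicate 4 left out). The share of all probe sets fell too, from 27.6% with all arrays to 14.1% and 21.1% in those fits. On the neuron mean, 9.93% of all probe sets rose and 7.49% fell without high-dose replicate 2. With all arrays these shares were 16.2% and 15.4%. The slope settings were added after the data were seen. With both marker means in 1 fit the neuron count was 3, the oligodendrocyte count 0 and its median -0.055, and the oligodendrocyte slopes of ATP5B, NDUFAB1 and NDUFC1 turned to 0.092, 0.012 and 0.0024. NDUFAF2 for high against medium dose was 0.04 with the mean of its probe sets. The labels do not say whether replicate numbers pair the samples. Over 36 same-numbered pairs of arrays the correlation of deviations ran from -0.447 to 0.306, with 8 above 0.1. Such correlations cannot settle whether samples were paired. With the replicate block and no set block, 0 members passed in each dose comparison, and 2, 1 and 1 had an unadjusted p under 0.05. Array number and rounding limit differences smaller than the intervals given.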

Other observations

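Glycolytic genes rose with the neuron marker mean in 12 of 14 cases (limma, adjusted p under 0.05), with PFKM, which commits fructose 6-phosphate to glycolysis, at 0.74 per log2 unit (SE 0.11) and HK1, the hexokinase of brain, at 0.58 (SE 0.08). ENO2 stands in both lists and is 1 of the 13 genes averaged into the neuron mean. Its rise was therefore built in, though the glycolytic counts here and below include it. Of all probe sets 16.2% rose and 15.4% fell. Of the tricarboxylic acid cycle genes 8 of 19 rose and 0 fell, among them DLAT (0.68, SE 0.11) and DLD (0.53, SE 0.09) of the pyruvate dehydrogenase complex. Other chain and carrier genes rose in 8 and fell in 2 of 20 cases, with CKMT1A, a mitochondrial creatine kinase, at 1.26 (SE 0.14) and VDAC1, the outer-membrane channel, at 0.58 (SE 0.08). SOD2, the mitochondrial superoxide dismutase, had 0.83 (SE 0.12) as 1 of 4 redox genes that rose of 12. PPARGC1A, a coactivator of mitochondrial biogenesis, had 0.65 (SE 0.15) as 1 of 2 biogenesis regulators that rose, with 1 that fell of 8.

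Genes that build mitochondria passed in both directions. Of 58 genes of the mitochondrial ribosome 8 rose and 3 fell, and of 23 import genes 4 rose and 1 fell, which was PMPCA, a subunit of the processing peptidase, at -0.46 (SE 0.09). Of 11 other assembly factors, TMEM70 (0.33, SE 0.12) and ACAD9 (0.22, SE 0.09) rose. The share of all probe sets was 16.2% for rising and 15.4% for falling. Without high-dose replicate 2, which had the lowest neuron mean, 10 of 14 glycolytic, 7 of 19 tricarboxylic acid cycle, 5 of 20 other chain and carrier, 4 of 12 redox and 2 of 8 biogenesis genes rose, and 0 of these fell. Without that array 4 of the ribosome genes rose and 2 fell, 3 of the import genes rose and 1 fell, and 0 of the 11 assembly factors passed, where 9.93% of all probe sets rose and 7.49% fell.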
